A study of Homo sapiens with 8 samples.

Results

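GPHN, MAPK8, COMMD10, FAF1, NME7, MAGI3, VOPP1 and SCLT1 are 8 protein-coding genes whose pre-mRNAs carried very many dyskerin crosslinks and almost no GAR1 crosslinks. They were 8 of the 20046 protein-coding genes of GENCODE 44, of which 10002 held a dyskerin site, and they were chosen by their very high dyskerin counts and their GAR1 counts near 0. Those values selected the genes, so the dyskerin level and its ratio to GAR1 are given below as a description with no test. The 8 were also grouped as intron-bound genes, so their high intronic share is a description too. Nearly all of the signal lay in introns, in a few dense stretches of several kilobases that were related to each other in sequence across all 8 genes and ran in the direction of transcription. The second dyskerin IgG library held almost none of this signal, while the first held more of it, for its size, than either dyskerin library.

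Dyskerin is the pseudouridine synthase of the H/ACA ribonucleoprotein, which is directed to uridines of ribosomal and spliceosomal RNAs by small nucleolar and Cajal body RNAs with H and ACA boxes, and GAR1 is another core protein of the same particle. Introns are the parts of a pre-mRNA that splicing removes, and in long genes they make up most of the transcript while it is still on chromatin. Human introns contain many copies of repeated sequences. Such copies can lie in either orientation relative to the gene around them.

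In iCLIP, ultraviolet light links a protein to the RNA it touches, and a cDNA that stops at the crosslinked nucleotide marks the contact. The cells were U2OS, a human osteosarcoma line. Nuclear fractions of cells irradiated with UV-C were precipitated with an antibody against dyskerin (2 libraries, dyskerin), with an antibody against GAR1 (2 libraries, GAR1), or with IgG in 2 control sets of 2 libraries each, one labelled for dyskerin (IgG_dyskerin) and one for GAR1 (IgG_GAR1). No group had a genotype change or a treatment other than the irradiation, and the labels did not say whether replicates were separate cultures, so p-values measure only the spread between these libraries, which may be technical.

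The values are counts of cDNAs at significant sites, each 1 nucleotide wide, that the authors called in each library by itself. The dyskerin libraries held 1693951 and 1875459 such cDNAs, the GAR1 libraries 585454 and 1976518, the dyskerin IgG set 146514 and 8183, and the GAR1 IgG set 295255 and 10701. A count of 3 cDNAs corresponded to 1.77 and 1.6 CPM for dyskerin, where CPM are counts scaled to an equal total of peak cDNAs per library, to 5.12 and 1.52 CPM for GAR1, to 20.5 and 367 CPM in the dyskerin IgG set, and to 10.2 and 280 CPM in the GAR1 IgG set. The second library of each IgG set was therefore too shallow to show a gene below those levels. Of 8 mesenchymal marker genes, 6 had at least 10 cDNAs in both dyskerin libraries, COL1A2 was at 0 in both, and none of 6 markers of blood, epithelium, liver or neurons reached 10.

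GPHN encodes gephyrin, which clusters glycine and GABA-A receptors at synapses and makes molybdenum cofactor in other cells. It lies on chr14:66507407-67181803, plus strand, and at 674 kb was the longest of the genes. GPHN had 10923 and 7072 cDNAs in the dyskerin libraries, 0 and 25 in GAR1, 1280 and 0 in the dyskerin IgG set and 6 and 0 in the GAR1 IgG set. It was the third protein-coding gene by mean dyskerin CPM, and its first dyskerin IgG value of 8736 CPM stood above its dyskerin values of 6448 and 3771.

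MAPK8 encodes the stress-activated kinase JNK1, and COMMD10 a subunit of the Commander complex, which recycles membrane proteins from endosomes. MAPK8 (chr10:48306639-48439360, plus strand, 133 kb) had 4198 and 3795 dyskerin cDNAs, 9 and 0 in GAR1, 624 and 0 in the dyskerin IgG set and 0 and 0 in the GAR1 IgG set. COMMD10 (chr5:116085016-116412762, plus strand, 328 kb) had 5007 and 4049 dyskerin cDNAs, 6 and 0 in GAR1, 699 and 3 in the dyskerin IgG set and 0 and 0 in the GAR1 IgG set. These genes were at ranks 14 and 11 by dyskerin CPM, and COMMD10 was the only one of the 8 with a count in the second dyskerin IgG library.

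FAF1 encodes an adaptor that binds ubiquitin and the ATPase VCP, and NME7 a member of the nucleoside diphosphate kinase family found with the γ-tubulin ring complex. FAF1 (chr1:50437028-50960267, minus strand, 523 kb) had 3008 and 2600 dyskerin cDNAs, 0 in both GAR1 libraries, 291 and 0 in the dyskerin IgG set and 3 and 0 in the GAR1 IgG set. NME7 (chr1:169132531-169367948, minus strand, 235 kb) had 3618 and 1901 dyskerin cDNAs, 0 in both GAR1 libraries, 574 and 0 in the dyskerin IgG set and 3 and 0 in the GAR1 IgG set. NME7 differed most between the dyskerin replicates, at 2.11 times more CPM in the first, and MAPK8 least, at 1.22 times.

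MAGI3 encodes a scaffold protein of cell junctions, SCLT1 a protein of the distal appendages of the centriole, and VOPP1 a vesicular protein with increased expression in some cancers. MAGI3 (chr1:113390515-113685923, plus strand, 295 kb) had 2972 and 2032 dyskerin cDNAs, 0 in both GAR1 libraries, 353 and 0 in the dyskerin IgG set and 0 and 4 in the GAR1 IgG set. VOPP1 (chr7:55436056-55572988, minus strand, 137 kb) had 3130 and 1832 dyskerin cDNAs and 432 in the first dyskerin IgG library, with 0 in the 5 others. SCLT1 (chr4:128864921-129093600, minus strand, 229 kb) had 3224 and 1974 dyskerin cDNAs, 1 and 0 in GAR1, 339 and 0 in the dyskerin IgG set and 3 and 0 in the GAR1 IgG set.

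All 8 genes were higher in the first dyskerin library than in the second. Mean dyskerin levels were 5110 ± 1893 CPM (SD, n = 2) for GPHN, 2557 ± 563 for COMMD10, 2251 ± 322 for MAPK8, 1581 ± 275 for FAF1, 1575 ± 794 for NME7, 1478 ± 602 for SCLT1, 1419 ± 474 for MAGI3 and 1412 ± 616 for VOPP1. GPHN stood above the others in both libraries. From FAF1 down to VOPP1 neighbouring genes differed by less than the spread between the replicates. Together the 8 genes took 2.13% and 1.35% of the cDNAs of the dyskerin libraries, 0.00273% and 0.00126% in GAR1, 3.13% and 0.0367% in the dyskerin IgG set, and 0.00508% and 0.0374% in the GAR1 IgG set.

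**Figure D1:**
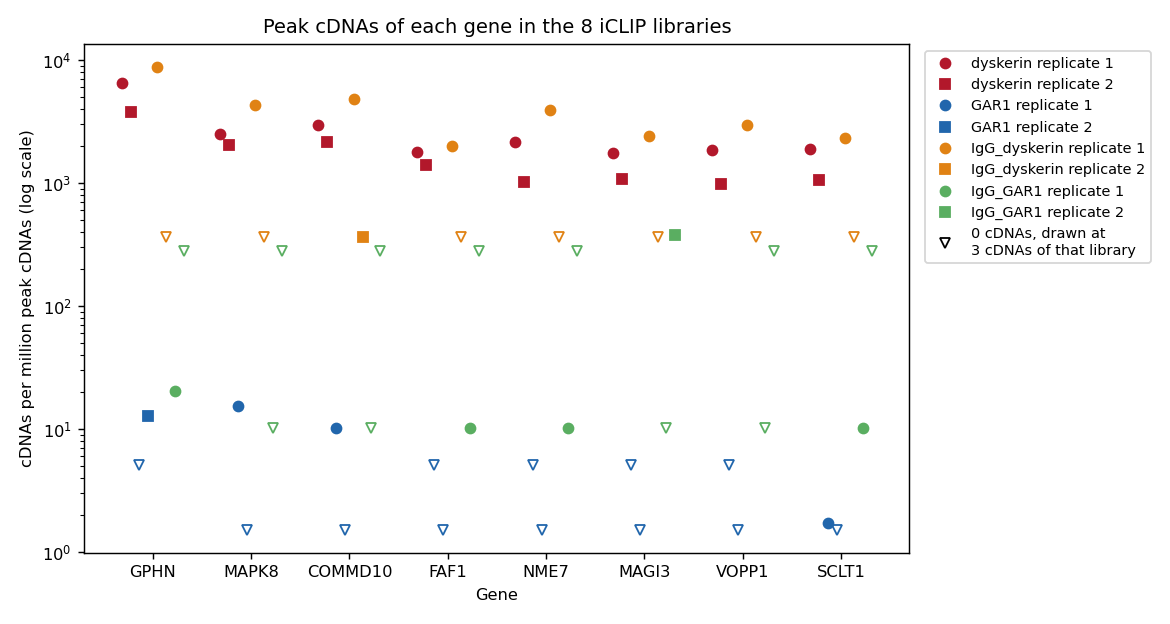
Peak cDNAs of each of the 8 genes in CPM (log scale) in each library, with circles for replicate 1, squares for replicate 2, and open triangles for a count of 0 drawn at the level that 3 cDNAs of that library give. The first dyskerin IgG library lies above both dyskerin libraries for all 8 genes, and no GAR1 value rests on more than 25 cDNAs.

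The ratio of dyskerin to GAR1, which chose the genes, was 1074 over the 8 genes together (61335 against 41 cDNAs, 95% counting interval 791 to 1496, scaled to all peak cDNAs). It was 517 for GPHN, 637 for MAPK8 and 1083 for COMMD10. SCLT1 had a single GAR1 cDNA, and its ratio of 3731 had an interval from 669 to 147391. FAF1, NME7, MAGI3 and VOPP1 had no GAR1 cDNA and were at least 1342-fold, 1320-fold, 1197-fold and 1187-fold higher in dyskerin, against a floor of 3 cDNAs over the group. All 8 were higher in both dyskerin libraries than in both GAR1 libraries, as were 91.5% of the 6404 genes tested, and nothing is read from that count. Protein-coding genes took 66.4% and 64.8% of the cDNAs of the dyskerin libraries but 2.95% and 3.99% in GAR1. A high ratio by this scaling was therefore not particular to the 8. Intervals and floors cover counting error only.

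Among protein-coding genes with no more GAR1 cDNAs than MAPK8, apart from GPHN, the 7 other genes were not a block of their own at the top. CDK14, EHBP1, UBE2E2 and SMYD3, with 5 to 7 GAR1 cDNAs and 91.7% to 99.6% of their dyskerin cDNAs in introns, had levels between those of COMMD10 and VOPP1. So did NCL, the gene of nucleolin, at 2061 CPM with 1.26% of its cDNAs in introns. The last gene inside was VOPP1, at 1412 CPM. The next outside were EIF3A at 1404 CPM, with only 2.52% of its cDNAs in introns, and SCFD2 at 1324 CPM, with 99.1%.

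By the level over all 8 libraries, the genes outside the 8 whose pattern lay nearest to their median were DTL, BABAM2, MAPK14, EHBP1 and SCMH1. Their distances on log2(CPM + 1) were 1.98, 2.46, 2.53, 2.82 and 2.87, among 5378 genes compared. DTL, a substrate receptor of a CUL4 ubiquitin ligase, had 1259 and 906 CPM in the dyskerin libraries and 2450 CPM in the first dyskerin IgG library. MAPK14, the p38α kinase, had 897 and 701 CPM and 1522 CPM in the same order. In all 5 genes at least 91.7% of the dyskerin cDNAs were intronic.

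The control libraries gave no level for these genes that both replicates shared. In the first dyskerin IgG library all 8 genes were above both dyskerin libraries in CPM, from 1.26 times the dyskerin mean for FAF1 to 2.49 times for NME7. Across all genes tested 13.7% did so. Scaled by total peak cDNAs, the second dyskerin IgG library would have held from 16.3 cDNAs of FAF1 to 71.5 of GPHN at that level. It held 3 of COMMD10 and 0 of each other gene. Sites were called in each library by itself, and weak scattered sites may not be called in so shallow a library. The scaled counts are therefore upper guides, and a count of 0 does not show that the signal was absent. None of the 8 was higher in both dyskerin libraries than in both dyskerin IgG libraries, against 70.3% of genes tested. Why the dyskerin IgG libraries stood apart for these genes was not tested.

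The fitted dyskerin minus IgG_dyskerin difference was between -0.65 (NME7) and 0.33 (FAF1) on the log2 scale for the 8 genes, with standard errors of 1.80 to 2.28. The median over the 8 was -0.18, against 1.99 over all genes. Its sign was not settled, as it was 0.66 and 1.27 without the first and the second dyskerin library, -1.17 without the second dyskerin IgG library and 2.16 with the replicate block. Without the first dyskerin IgG library the fitted median was 12.86, which rests on counts of 0 and is no bound, and with these genes at the floor of 3 cDNAs of the second library it was 4.25-fold (2.09 on the log2 scale). Because high dyskerin counts chose the genes, no test of them is given.

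Over all genes edgeR's quasi-likelihood test called 0 of 6404 for dyskerin against its IgG set (0.0%), with 1418 at an unadjusted p under 0.05, and DESeq2 also called 0. Other settings called 7 genes (0.109%, scaling to total cDNAs), 3 (0.103%, sites of at least 3 cDNAs) or 816 (22.9%, at least 50 counts in 2 libraries). Against the second dyskerin IgG library alone, COMMD10 was 6.92 times higher in dyskerin (counting interval 2.37 to 33.6). GPHN was at least 13.8-fold higher, MAPK8 at least 6.11-fold and the others at least 3.79-fold. These ratios use the dyskerin counts that chose the genes and the sites called in a shallow library. Against the first dyskerin IgG library every one of these genes was lower in dyskerin by CPM. The ratios are therefore descriptions and not an enrichment over the control.

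The comparison of GAR1 with its IgG set rested on a handful of cDNAs. The antibody list of the study gives the GAR1 antibody as rabbit, and the precipitating dyskerin antibody and the only control IgG as mouse, so by that list the control of the GAR1 set was not matched in species. The 25 GAR1 cDNAs of GPHN all came from the second library, and the GAR1 cDNAs of MAPK8, COMMD10 and SCLT1 from the first. Low GAR1 counts chose the genes, so no test of them is given. Over all genes edgeR called 0 of 6404 (0.0%), with 1015 at an unadjusted p under 0.05, DESeq2 called 81 (1.26%), scaling to total cDNAs 10 (0.156%) and a filter of at least 50 counts 24 (0.672%).

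The IgG sets, whose counts did not choose the genes, were compared with each other, and edgeR called none of the 8. All 8 passed the count filter with their dyskerin counts, which did choose them, so their values here are a description. The first dyskerin IgG library held 291 to 1280 cDNAs of each, while no IgG_GAR1 library held more than 6. The fitted IgG_dyskerin minus IgG_GAR1 difference was 8.58 for GPHN (SE 2.58), 8.32 for NME7 (SE 3.14) and 4.39 for MAGI3 (SE 2.7) on the log2 scale. The edgeR adjusted p of these genes were 0.197, 0.197 and 0.261. MAPK8, COMMD10 and VOPP1 were at 0 in IgG_GAR1, so their fitted values were not used. edgeR called no gene (0.0%; 1600 at an unadjusted p under 0.05, 7 of them among the 8), while DESeq2 called 255 genes (3.98%), 7 of them among the 8. With scaling to total cDNAs edgeR called 1510 genes (23.6%) and 7 of the 8, and with sites of at least 3 cDNAs 439 genes (15.1%) and all 8. Nothing is read from the calls among the 8, which include genes at 0 in IgG_GAR1. In this set too, the second IgG_dyskerin library was near 0 for all 8 genes and stood apart from the first.

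The introns held nearly all of the signal in 7 of the genes. In VOPP1 99.9% and 100% of dyskerin cDNAs were intronic in the 2 libraries, in COMMD10 99.8% and 98.9%, in MAPK8 99.8% and 98.6%, and in GPHN 99.2% and 97.9%. SCLT1 had 99.5% and 95.6%, FAF1 98.4% and 96.3%, and MAGI3 96.7% and 96.6%. NME7 was the lowest at 86.7% (exact 95% interval 85.6 to 87.8) and 84.1% (82.4 to 85.7).

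The first dyskerin IgG library divided in the same way, with 81.9% of NME7 cDNAs in introns and 98.9% to 100% for the other genes. Introns made up 92.7% (MAPK8) to 99.3% (COMMD10) of the length of the genes. Over the 4592 protein-coding genes with at least 50 dyskerin cDNAs the median intronic share was 13.6%, with quartiles of 3.53% and 68.5%, and 18.0% of those genes were at or above NME7. The 8 genes were also long, with a median of 265 kb against 63.6 kb, and dense, with a median of 25.1 dyskerin cDNAs per kb against 3.75. Since they were picked for high counts and grouped as intron-bound genes, the density and the intronic share beside other genes are descriptions. NCL, with a similar dyskerin level and few GAR1 cDNAs but mostly exonic signal, was not among them.

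The exonic cDNAs of NME7 lay in a single annotated exon. Its ninth merged exon, chr1:169283821-169287408, is 3588 nt long and held 480 and 296 of the 480 and 302 exonic dyskerin cDNAs, and all 104 exonic cDNAs of the first dyskerin IgG library. Of its 776 dyskerin cDNAs, 774 (99.7%) lay in 1000 nt that were a copy of the shared sequence. When exons were taken from basic transcripts only, 100% and 99.7% of NME7 cDNAs were intronic. In MAGI3, 95 and 66 of the 99 and 70 exonic cDNAs lay in the last exon, and in GPHN the exonic 91 and 147 cDNAs were spread over several exons.

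Whether the division between intron and exon differed from that of the IgG set was tested for genes with enough counts in both parts. Of 1763 genes 1 was called (0.0567%), MLLT1, with an adjusted p of 0.0198 by edgeR's diffSpliceDGE, and 189 had an unadjusted p under 0.05. That call was lost with scaling to total cDNAs, with at least 50 counts, with the replicate block and with any library left out (0 genes). None of the 5 tested members was called. Their adjusted p were 0.429 for FAF1 and SCLT1, 0.704 for MAGI3, 0.830 for GPHN and 0.844 for NME7. Their exon rows passed the filter through the dyskerin libraries, whose counts chose the genes. The second dyskerin IgG library held no cDNA of these 5, and the first held no exonic cDNA of FAF1 or SCLT1. The test could therefore not decide the question for them, and nothing is read from these values. MAPK8, COMMD10 and VOPP1 had too few exonic cDNAs to be tested.

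The strand of the sites followed the genes. No dyskerin site lay on the opposite strand of 7 genes, of which MAPK8 and VOPP1 have no annotated gene there, and sites were found only within annotated genes. The span of SCLT1 held 12 and 14 opposite-strand cDNAs, all in JADE1. A single other gene on the same strand took at least 10 cDNAs, a processed pseudogene in GPHN at chr14:66760532-66761018 (ENSG00000258796) with 11 and 14.

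The signal was made of many weak sites rather than a few strong ones. GPHN had 7156 and 4930 dyskerin sites, COMMD10 3108 and 2663, MAPK8 2464 and 2317, and VOPP1, the lowest, 1779 and 1237. From 60.5% to 75.3% of the dyskerin sites of a gene had a single cDNA. No site had more than 19 cDNAs, and the tallest site of a gene held 0.13% to 0.71% of its cDNAs in a library. The tallest sites were in introns in all 8 genes, 4440 nt (GPHN) to 50220 nt (FAF1) from the nearest exon.

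Replicates returned the same nucleotides for a minority of sites. Of the intronic sites of MAPK8, 44% of the first library and 47.5% of the second had a site at that very nucleotide in the other, and for SCLT1 21.1% and 34.5%. For intronic sites of the other protein-coding genes the shares were 22.1% and 26.3%. At a coarser scale the replicates were close, with a Pearson r of 0.978 to 0.997 between the dyskerin libraries over the 14 to 68 windows of 10 kb of a gene. Between a dyskerin library and the first dyskerin IgG library r was 0.946 to 1.000. These windows share the gene, so the r values are descriptions. At single nucleotides, 56.3% (SCLT1) to 78.8% (MAPK8) of the IgG sites of a gene were also dyskerin sites, and 61% in other genes.

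Sites lay deep in the introns. In GPHN the median site lay 12835 and 13169 nt from the closest exon of the gene, against 8737.5 nt for all of its intronic bases. In COMMD10 it was 36092 and 36037 nt against 18568, and in MAPK8 11854 and 11758.5 nt against 5281. FAF1 had 29850.5 and 30647 nt against 9392. MAGI3, with 56123 and 56585 nt against 8929, had the largest distances of the 8. For MAGI3 the medians were 11392.5 and 11557 nt when exons of any gene on the strand were used.

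VOPP1 had 10135 and 9086 nt against 3096, and SCLT1 9854 and 9628.5 nt against 3713. NME7 was the exception, with 3144 and 3359 nt against 6322, where the fullest dense stretch overlapped the exon described above. Within 300 nt of an exon lay 0% to 1.80% of intronic dyskerin sites, against 2.33% to 7.76% of intronic bases. The first dyskerin IgG library had medians close to those of dyskerin, such as 12589.5 nt in GPHN and 36252.5 nt in COMMD10. The baseline takes all introns of a gene, while in most of these genes the cDNAs lay mainly in few long introns. The distances therefore do not separate depth within an intron from which introns were occupied. Sites of a gene are not replicates, so no test was made.

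**Figure D2:**
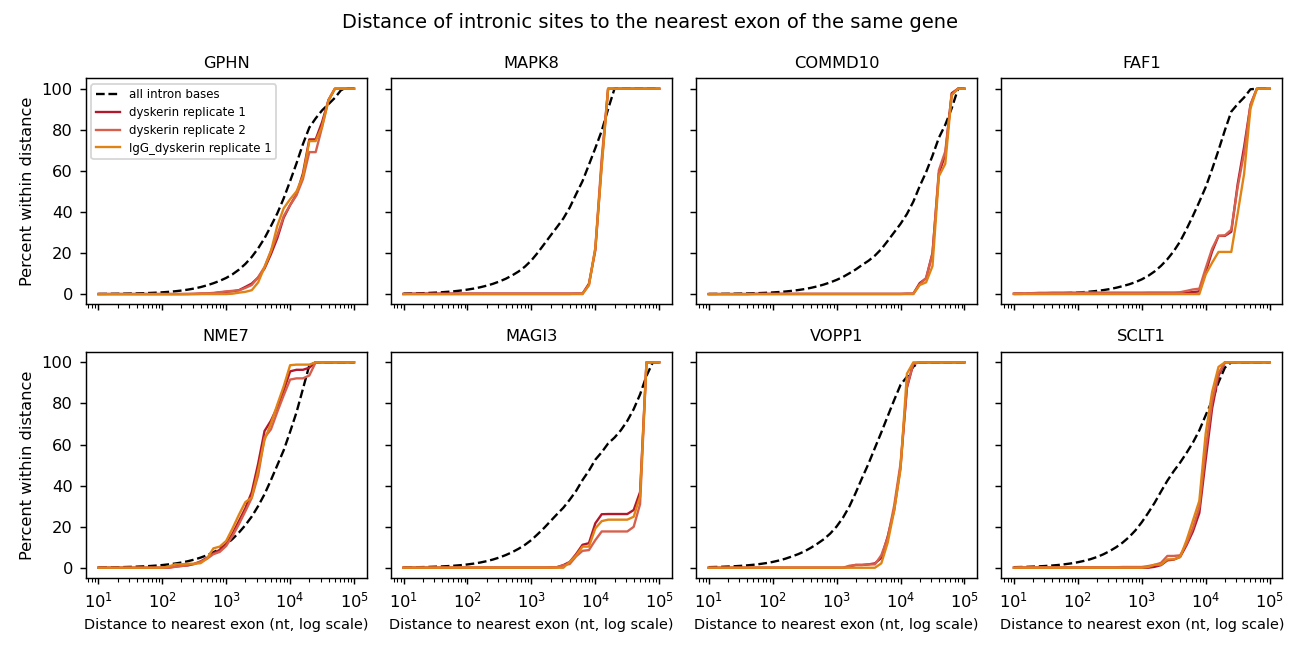
Cumulative percent of intronic sites (each site counted once) within a given distance of the nearest exon of the same gene (nt, log scale), for both dyskerin libraries and the first dyskerin IgG library, with all intronic bases of the gene as the dashed line. In 7 genes the site curves lie to the right of the bases for most of their length, and in NME7 to the left.

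Few introns carried the counts. Intron 19 of VOPP1 (34.4 kb) held 95.7% and 93.6% of its dyskerin cDNAs, intron 9 of NME7 (36.8 kb) 82.9% and 73.3%, and intron 6 of COMMD10 (157 kb) 76.1% and 76.9%. Introns are numbered over merged exons of all transcripts of the gene. Intron 19 is the last of VOPP1 and follows a merged exon of 2433 nt. With exons of basic transcripts only, 99.9% and 100% of VOPP1 cDNAs were still intronic. How much of the VOPP1 RNA extends past that exon was not tested. Intron 2 of MAGI3 (145 kb) held 73.7% and 80.8%, intron 2 of FAF1 (102 kb) 71.1% and 69.7%, and intron 4 of MAPK8 (38.6 kb) 66.7% and 63.6%. GPHN was spread more widely, with 36.3% and 40.3% in intron 3 (130 kb) and sites in 15 and 11 of its 29 introns. In SCLT1 the fullest intron differed between replicates, being intron 2 with 48.7% in the first and intron 7 with 50.1% in the second.

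Within the introns the sites gathered in dense stretches. Dyskerin sites no more than 500 nt apart were joined, and runs with at least 200 dyskerin cDNAs were kept, which gave 39 stretches of 1097 to 9688 nt, with a median of 4415 nt. GPHN had 12, COMMD10 7, NME7 5, MAGI3 4, MAPK8, FAF1 and SCLT1 3 each, and VOPP1 2. They covered 4.02% (FAF1) to 11.3% (MAPK8) of a gene and held 76.6% (MAGI3) to 99.5% (MAPK8) of its dyskerin cDNAs in a library. The stretches were drawn from those counts, so their share of dyskerin cDNAs is a description. In the first dyskerin IgG library, which did not define them, they held 54.7% (MAGI3) to 82.9% (MAPK8).

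**Figure D3:**
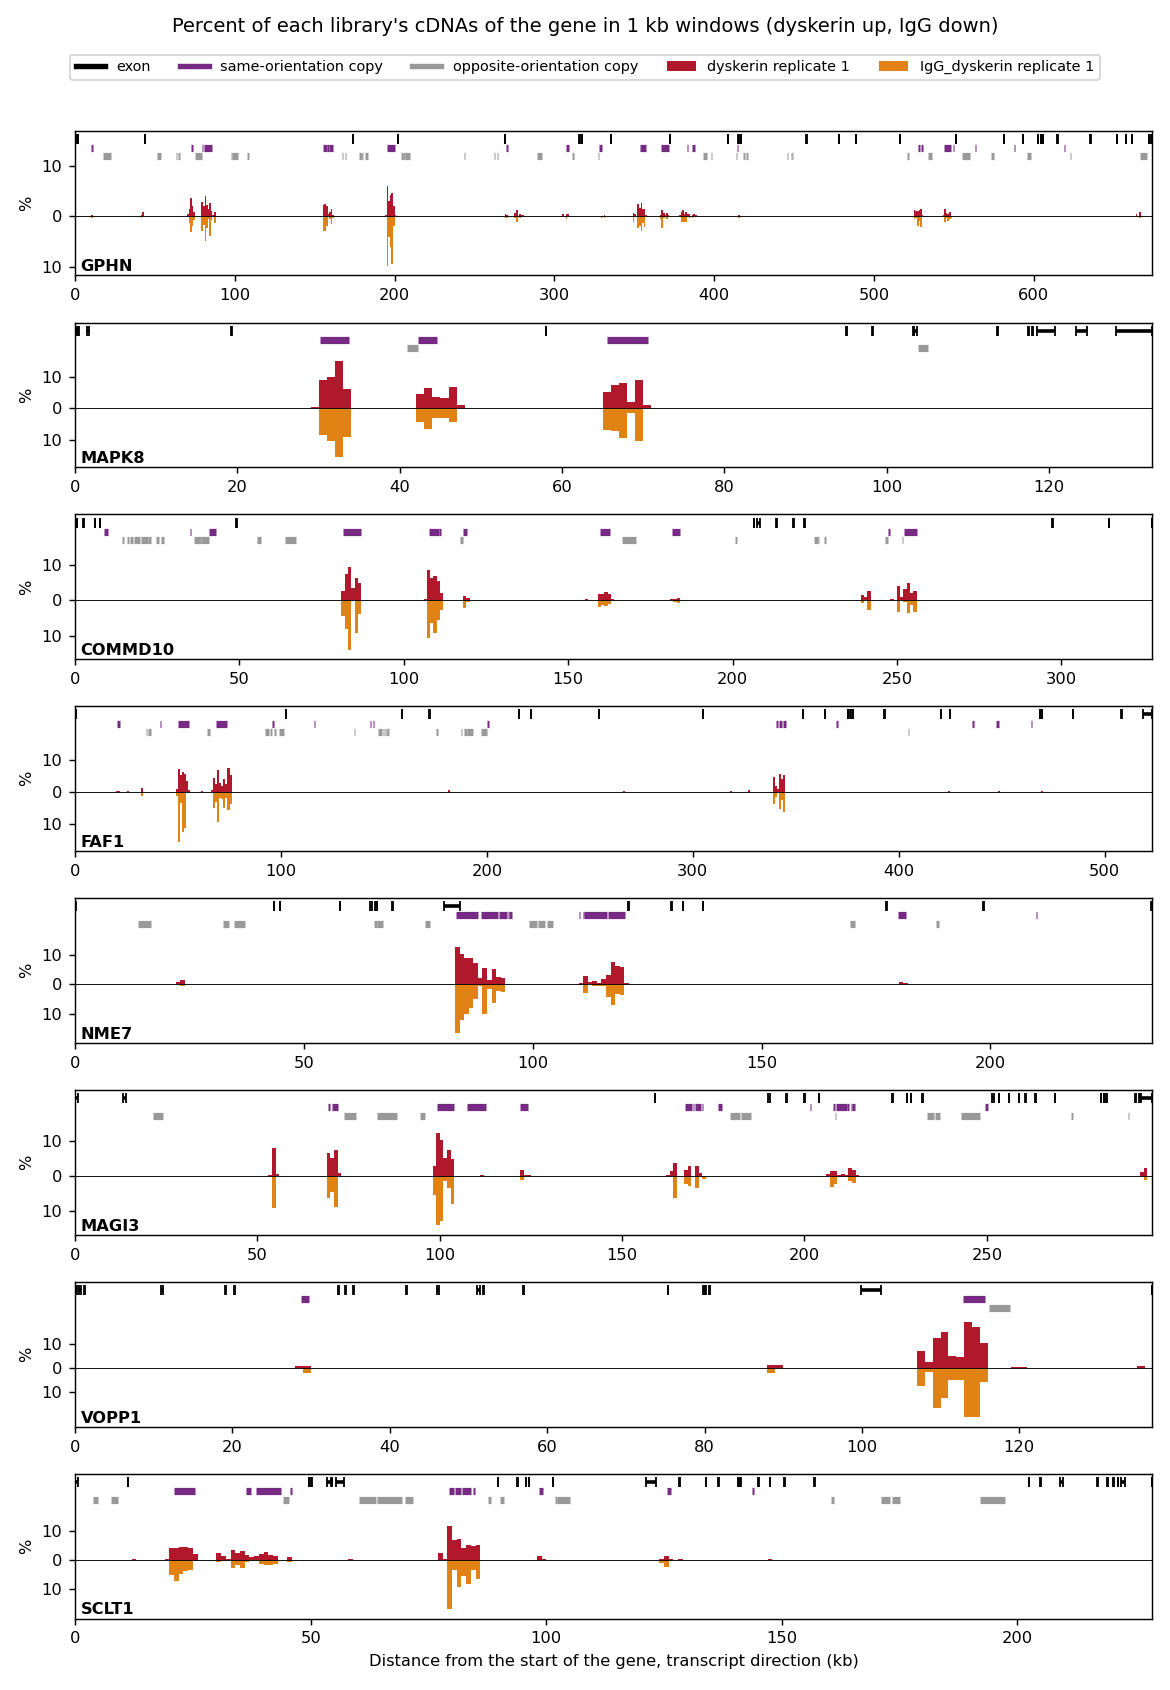
Percent of the cDNAs of each gene in 1 kb windows along the gene (kb from its start, in the direction of transcription), upward for the first dyskerin library and downward for the first dyskerin IgG library, with exons (black) and copies of the shared sequence in the same (purple) and opposite (grey) orientation above. Peaks of both libraries stand at the same places, mostly under purple bars, and grey bars have next to no signal under them.

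The stretches were alike in sequence across the genes. Of the 39, 37 aligned by blastn (e-value up to 1e-20) to a stretch of another of the genes, 35 to at least 4 other genes and 31 to all 7. The alignments were in the same orientation over 2376 kb and in the opposite one over 9.26 kb, counted over all pairs. The longest ran for 5407 nt at 84.0% identity between COMMD10 and FAF1. The 2 stretches without a match were the first of GPHN (chr14:66549173-66550732) and the fifth of COMMD10 (chr5:116325113-116327211). The stretches were rich in adenine, with 33.3% to 44.9% A and a median of 40.6%, and had a median of 21.6% U.

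To place all genes on a common sequence, the longest run covered by matches from at least 4 other genes was used, a 5339-nt run in intron 2 of FAF1 at chr1:50886507-50891845, minus strand. It was 39.7% A and aligned to the genome 158142 times, 60500 of them over at least 1 kb, and these alignments covered 190 Mb. No repeat annotation was used here, and whether the copies are annotated as a repeat was not tested. In the introns of the 8 genes, copies in the same orientation as the gene covered 174.5 kb (6.98%) and copies in the opposite orientation 192.8 kb (7.71%).

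Crosslinks fell in the copies of the same orientation and almost never in the others. Same-orientation copies held 25609 and 17911 of the intronic dyskerin cDNAs of the 8 genes (72.5% and 73.2%) and 3502 in the first dyskerin IgG library (78.2%). Opposite-orientation copies held 8, 17 and 4. Per kb, the same-orientation copies had 147, 103 and 20.1 cDNAs in these libraries, the opposite-orientation copies 0.0415, 0.0882 and 0.0207, and the rest of the introns 4.55, 3.06 and 0.455. Orientation here is relative to the pre-mRNA, so that both kinds of copy are parts of the same transcript.

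By gene, NME7 had 96.3% and 92.1% of its intronic dyskerin cDNAs in same-orientation copies, MAPK8 85.3% and 85.4%, and COMMD10 81.7% and 82.7%. MAGI3, FAF1, GPHN and SCLT1 lay between 66.2% and 72.5%. VOPP1 was the lowest with 46.5% and 43.3%, and it had only 3.87 kb of same-orientation copy. The first dyskerin IgG library gave 98.9% in NME7, 89.6% in MAPK8, 84.5% in COMMD10 and 49.8% in VOPP1, an order close to that of dyskerin.

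In 6 genes no dyskerin cDNA lay in an opposite-orientation copy, although GPHN had 64.5 kb of these, SCLT1 28.8 kb, FAF1 23.6 kb and NME7 15.6 kb. MAPK8 and VOPP1 had 2.64 and 2.63 kb. The exceptions were COMMD10, with 6 and 13 cDNAs in 27.3 kb, and MAGI3, with 2 and 4 in 27.7 kb. The reference run was cut from stretches with many dyskerin cDNAs in these same genes, read in the direction of transcription, so the excess of dyskerin cDNAs in same-orientation copies was largely built in and is given with no test. The IgG library and the genes outside the 8 did not define the run.

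**Figure D4:**
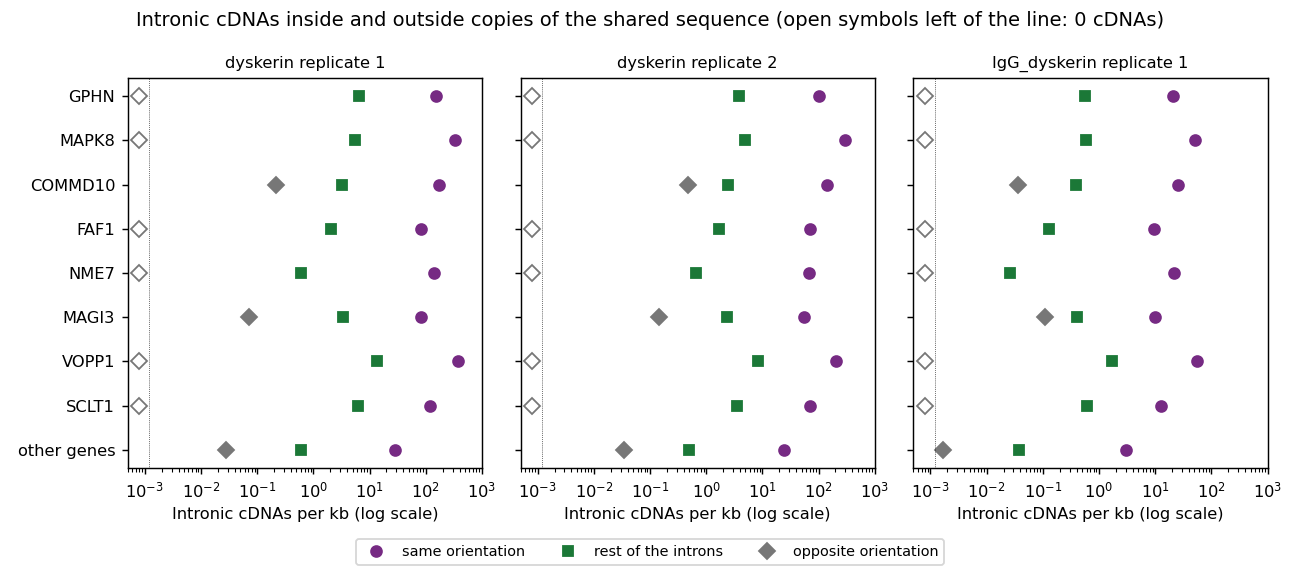
Intronic cDNAs per kb (log scale) in copies of the shared sequence in the same orientation as the gene, in copies in the opposite orientation and in the rest of the introns, for each gene and for the 4584 other protein-coding genes with at least 50 dyskerin cDNAs as a sum, in 3 libraries. Open symbols left of the dotted line stand for 0 cDNAs. Same-orientation copies lie above the rest of the introns in every gene and library shown, and filled opposite-orientation symbols are found for COMMD10, MAGI3 and the other genes.

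The same orientation held the signal in genes outside the 8. Of 795 other genes with at least 1 kb of each kind of copy, 794 (99.9%) had more dyskerin cDNAs per kb in the same orientation. Over 4584 other genes same-orientation copies made up 1.74% of introns and held 46.1% and 46.5% of intronic dyskerin cDNAs and 59.3% of those of the first dyskerin IgG library. The densities were 28.5, 23.9 and 3.04 cDNAs per kb, and 0.0279, 0.0349 and 0.00166 in opposite-orientation copies. The same-orientation copies of these other genes held 245799 and 205431 dyskerin cDNAs and 152 and 284 GAR1 cDNAs. Orientation and scarce GAR1 cDNAs were therefore not particular to the 8 genes, and the higher density of their copies was part of how they were chosen.

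The 8 genes were rich in this sequence but did not hold the top ranks for it. Same-orientation copies made up 6.98% of their introns against 1.74% in the other genes, and all but VOPP1 were within the first 201 ranks. Opposite-orientation copies made up 7.71% against 3.18%, so the richness was not confined to the same orientation. The run was cut from sequence that these genes share, so their richness in it was partly built in and is a description. Ranked by the length of same-orientation copy among the 4592 genes, GPHN was at 12, MAGI3 at 57, FAF1 at 61, COMMD10 at 65, NME7 at 76, SCLT1 at 100, MAPK8 at 201 and VOPP1 at 640. Over these genes the Spearman correlation of intronic dyskerin cDNAs was 0.601 with the length of same-orientation copy, 0.520 with that of opposite-orientation copy and 0.648 with that of all introns, as descriptions across genes, which are not replicates. Copies in the same gene also differed from each other. The 8 genes had 56 same-orientation copies of at least 1 kb, at 63.7% to 100% identity to the FAF1 run, of which 37 had over 100 dyskerin cDNAs per kb, 5 had under 10, and 3 of these had none.

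Dense copies and near-empty ones lay in the same gene. In MAGI3 a 5129-nt alignment at 91.9% identity held 16 dyskerin cDNAs and a 4766-nt one at 77.2% held 1821. In COMMD10 a 1996-nt alignment at 91.8% identity held none, while one of 5455 nt at 83.9% held 3065. MAPK8 had the densest copy, 3664 nt at 70.5% identity, with 912 dyskerin cDNAs per kb.

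Along the shared sequence the counts were uneven, and unevenly alike in the 3 libraries. Placed on the FAF1 run in 27 bins of 200 nt, the cDNAs of the 8 genes were highest in the bin that starts at nucleotide 3601 in both dyskerin libraries (7.66% and 8.30%) and in the bin from 2201 in the first dyskerin IgG library (9.78%). The Pearson r with the first dyskerin library over the 27 bins was 0.971 for the second and 0.908 for the IgG library, as a description of bins that share the underlying sequences. VOPP1 contributed only to the later part of the run, as its copies begin there. Counts were not divided by the length of copy that reaches each bin, so a bin covered by more copies can be higher for that reason alone.

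**Figure D5:**
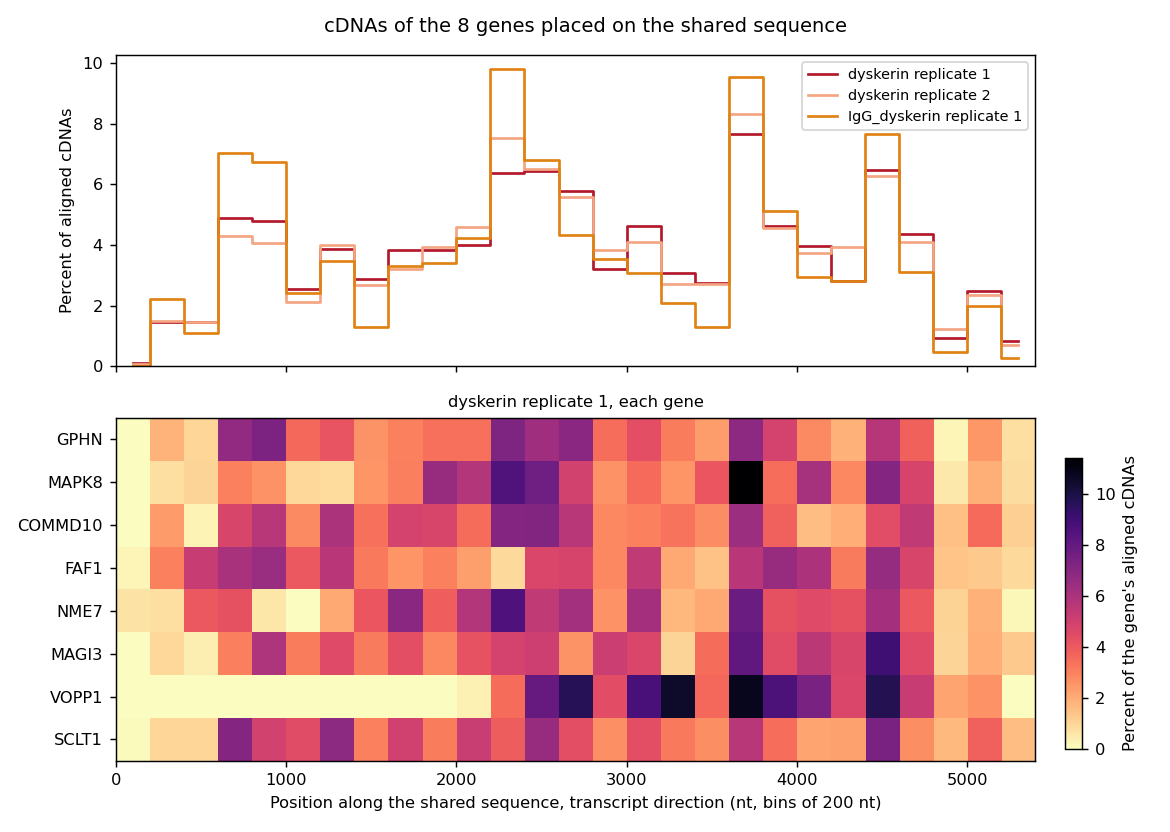
Intronic cDNAs of the 8 genes placed by alignment on the 5339-nt run of FAF1 (position in nt, bins of 200 nt, transcript direction). The upper panel gives the percent of placed cDNAs in both dyskerin libraries and the first dyskerin IgG library, and the lower panel the percent for each gene in the first dyskerin library, where the signal extends over most of the run in the other genes and over its later part in VOPP1.

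Some of the densest signal lay outside the copies of the FAF1 run. The tallest site of VOPP1, chr7:55465030, with 15 and 13 dyskerin cDNAs and 1 in the first dyskerin IgG library, and that of MAGI3, chr1:113444989, with 8 and 5 dyskerin cDNAs and 0, were not in a copy. They are printed with 30 nt on either side, 5′ to 3′ in the direction of transcription (GRCh38, with DNA letters), because they carry the most dyskerin cDNAs of their genes and lay outside the copies of the FAF1 run, and the capital marks the crosslinked nucleotide.

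VOPP1, chr7:55465000-55465060, minus strand: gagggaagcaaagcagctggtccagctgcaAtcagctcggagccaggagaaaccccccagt

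MAGI3, chr1:113444959-113445019, plus strand: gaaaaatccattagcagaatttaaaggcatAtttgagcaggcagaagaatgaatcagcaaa

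The VOPP1 stretch around the first of these (chr7:55461736-55466014) held 1334 and 794 dyskerin cDNAs and had the least adenine of all 39 stretches, 33.3%. It still aligned to stretches of 6 other genes, at most over 927 nt at 70.3% identity (SCLT1). The MAGI3 stretch around the second aligned to stretches of 2, at most over 304 nt at 68.8% (GPHN). Whether the printed sites lay in the aligned parts was not tested. The tallest sites of the other 6 genes were in same-orientation copies. MAPK8 had 18 and 18 cDNAs at chr10:48338815, GPHN 10 and 15 at chr14:66704917, and FAF1 and SCLT1 9 and 9 each.

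The crosslinked base was adenine at 36.1% and 36.7% of intronic dyskerin sites and uridine at 31.1% and 31.4%, with guanine at 14.3% and 13%. In the first dyskerin IgG library the shares were alike, at 36.2% adenine and 31.8% uridine. Same-orientation copies were 41.3% A and 21.1% U, and all intronic bases of the genes 30.1% A and 32.4% U. UV light crosslinks uridine more readily than other bases in general, and its part in these shares was not tested.

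Reads that start in repeated sequence can align to several places, and reads with up to 50 alignments were kept by the authors. By an exact match of the 50 nt that follow them, most of these sites were in unique sequence. The authors also kept trimmed reads shorter than this and reads with mismatches. A unique stretch therefore does not show that the reads of a site aligned to a single place. The 50 nt after a site occurred once in the genome for 92.8% and 91.4% of intronic dyskerin sites of the 8 genes, 89.9% in the first dyskerin IgG library, and 92.8% of all intronic positions examined. NME7 was lower, at 78.8% and 77.7%, and VOPP1 was at 99.9% and 100%. The reads behind the sites were not analysed here, so the share of multiply aligned reads was not measured.

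Genes that act with the 8 had lower levels, which the choice of the 8 for high dyskerin counts largely fixed in advance. Differences in gene length were not accounted for, and nothing is read from the contrast. Of the other JNK pathway genes 5 of 9 had at least 10 cDNAs in both dyskerin libraries, led by the scaffold MAPK8IP3 at 261 CPM (23.5% intronic) and the transcription factor JUN at 222 CPM (0%), against 2251 CPM for MAPK8. Of 14 other Commander genes 2 did, CCDC93 at 200 CPM with 9.17% in introns and COMMD1 at 35.6 CPM with 92.1%. None of 5 genes of molybdenum cofactor synthesis or gephyrin binding did, and 1 of 8 other NME genes, NME4 at 9.43 CPM.

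The distal appendage genes other than SCLT1 reached 10 cDNAs in 3 of 4 cases, with CEP83 at 373 CPM and 61.9% in introns and CEP164 at 48.2 CPM and 0.581%. All 7 other VCP cofactor genes did, none above the 87.6 CPM of NPLOC4, which was 7.35% intronic. VCP itself was at 60.4 CPM and 0%. The closest in pattern were the paralogs of MAGI3, MAGI1 at 186 CPM with 95.9% and MAGI2 at 75.1 CPM with 97.7% in introns. The counts of these groups were too few for more than a description.

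The amount of each pre-mRNA was not measured in these libraries, so a higher count from more binding and one from more RNA cannot be told apart.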

How the data were processed

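Crosslinks of dyskerin and GAR1 and 2 sets of IgG controls were measured by iCLIP in nuclear fractions of U2OS cells, with 2 libraries in each of 4 groups. The authors checked reads with FastQC 0.11.9, trimmed adapters with cutadapt, whose version is not given in the sources used here, aligned reads of up to 100 nt end to end to GRCh38 with STAR 2.7.0e and GENCODE 27, and called crosslink positions with iCount, with up to 50 alignments kept, a window of 3 nt on each side, and a false discovery rate of 0.05 from 100 permutations. The deposited values are raw counts of cDNAs per significant site, and the authors also deposited clusters of sites with counts. Because calls were made library by library, the sums are not sequencing depths.

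Each site was given to 1 of the 62700 GENCODE 44 genes on its strand, short non-coding RNAs first (with 5 nt upstream of each), then exons, then introns, and counts were summed per gene. CPM values are scaled to all peak cDNAs of a library. The gene table, filtered at 10 or more counts in 2 or more libraries, was fitted in edgeR 4.0.16 under R 4.3.3 (with limma 3.58.1) for quasi-likelihood F tests after TMM scaling, with all 4 groups in 1 fit and Benjamini-Hochberg adjustment over all genes tested, at an adjusted p of 0.05, two-sided. Introns and exons of a gene were compared with diffSpliceDGE. Intervals are exact at 95%, given for shares of at least 20 cDNAs, and counts of 0 were set at a floor of 3 counts. With 2 libraries against 2 an exact permutation test cannot go below p = 0.333, so single values were not tested.

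Dense stretches and the reference run were aligned with blastn (BLAST 2.17.0). The letters of the sequence the genes share, and the sites within those letters, are not reported here. On simulated counts of 5053 genes for dyskerin against its IgG set, 177 of 200 genes changed 8-fold were recovered (88.5%) with 6 false calls. For introns against exons in 898 genes, 76 of 200 (38.0%) were recovered with 5 false calls. Both simulations used a fixed spread between replicates that was not estimated from these libraries, and equal group means except in changed genes. Changed genes were drawn from those with more counts. These shares are therefore a check of the code and not the power of the tests on the real libraries. The replicates of no group agreed within sampling noise, with chi-square per degree of freedom of 18.4, 32.7, 11.0 and 11.3 for dyskerin, GAR1, IgG_dyskerin and IgG_GAR1. The genes, partner lists and marker lists were chosen with earlier results of these data known. The named genes were the 8, the tallest dyskerin site of each, the 5 genes nearest to their median profile, same-strand genes inside them with at least 10 dyskerin cDNAs, and up to 2 genes of each partner list. Genes just inside and outside the choice by level and the gene called for introns against exons were named after their values were seen. Alternatives were another scaling, DESeq2 1.42.0, other filters, clusters in place of sites, the replicate block, and each library left out in turn.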

Additional observations from a re-analysis of the deposited data

How the results depend on the processing

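The median intronic share over the 8 genes, 98.0%, was 98.0% to 98.9% under every alternative tried, less than the spread between replicates. By gene, NME7 moved from a mean of 85.4% to 99.8% with exons of basic transcripts only and to 80.5% with sites of at least 3 cDNAs, and MAGI3 from 96.6% to 96.5% with the latter, each beyond the spread. Calls for dyskerin against its IgG set were 7 with scaling to total cDNAs, 2 without a filter, 816 with at least 50 counts (808 higher) and 3 with sites of at least 3 cDNAs, against 0. They were 0 whichever library was left out. For GAR1 against its IgG set they were 10, 31 and 24 with scaling to totals, no filter and at least 50 counts, 81 with DESeq2 and 41 with clusters, against 0, and 0 to 719 when a library was left out, the highest without GAR1 replicate 1. For the IgG sets they were 1510, 255 and 439 with scaling to totals, DESeq2 and sites of at least 3 cDNAs, against 0, and 0 to 3 when a library was left out, the highest without GAR1 replicate 2. The intron and exon call was lost (0 genes) with scaling to totals, at least 50 counts, the replicate block and every library left out. The cause of these changes was not tested.

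Replicate numbers did not pair the samples, since deviations from the group means correlated by -0.14 to 0.10 between groups. With the replicate block the median log2 difference of the 8 genes for dyskerin against its IgG set was 2.16 in place of -0.18, and the gene tables had 0 calls, as without it. The block changed no other call than that of MLLT1. With a library left out this median was -1.17 to 12.86, the lowest without the second and the highest without the first dyskerin IgG library, and it was 0.66 and 1.27 without the first and the second dyskerin library, so that its sign was not settled. Where leaving out a library left a group with 1 sample, that sample was assumed to vary like the other groups.

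The summed dyskerin to GAR1 ratio was 4151 with sites of at least 3 cDNAs, in place of 1074, and 629 to 1359 when a library was left out. The median distance over the genes was 12566.5 nt with sites weighted by cDNAs and 11640.5 nt with exons of any gene, in place of 12404 nt. With each site counted once and with sites of at least 3 cDNAs, the fullest intron held 71.6% and 76.9% in place of 73.5%, the fullest 1 kb window 10.4% and 17.5% in place of 11.9%, and the tallest site 0.0533% and 1.57% in place of 0.380%. With a reference run from COMMD10, chosen after seeing the data, the same-orientation share was 72.3% in place of 69.9%. With sites within 200 and 1000 nt joined, also chosen after seeing the data, dense stretches held 84.4% and 93.0% in place of 89.6%.

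The share of sites in masked repeats was not run, because the genome used carried no repeat mask. The second libraries of both IgG sets, with 8183 and 10701 cDNAs, could not show levels below 367 and 280 CPM, and no error estimate rests on more than 4 residual degrees of freedom.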
